A study of Rattus norvegicus with 15 samples.

Results

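Femurs of ovariectomised rats that received walnut extract (group J) were compared with femurs of sham-operated rats (group Sham) by RNA sequencing, which asks what still differs from sham under the extract. The libraries were chosen by their titles, 3 of group J and 3 of group Sham, which are 6 of the 15 libraries of the study. All rats were female Sprague-Dawley (SD) rats, 8 weeks old when the experiment began, and osteoporosis after loss of the ovaries is the condition named in the study's title. Rats of group J had both ovaries removed and, after 6 weeks of recovery, were gavaged daily for 8 weeks with walnut (Juglans regia) extract, 1.6 g per kg each day. Rats of group OVX had the same surgery and were given saline, and their 3 libraries are used below for values side by side. Sham rats kept their ovaries, lost an equal amount of fat and are labelled as given saline. Group J therefore differs from Sham in surgery and in extract, and the contributions of both cannot be told apart in this comparison. No label says that the libraries are from different rats, so a p-value here measures spread among libraries, which may be technical. Which part of the femur was taken, and whether marrow was kept in, is not stated either.

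A femur holds mineralised bone made by osteoblasts and kept by osteocytes, osteoclasts that resorb it, cartilage at the joint surface and growth plate, and marrow with blood-forming cells, fat cells and a vascular stroma. Estrogen from the ovary restrains osteoclast formation, in part through osteoprotegerin, the decoy receptor that binds the osteoclast-forming ligand RANKL. Ovariectomy of rats is a standard model of bone loss by estrogen deficiency, and it is also known to raise B cell formation and fat in marrow.

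Values are FPKM, fragments per kilobase of gene and library size, as deposited by the authors, and differences are J minus Sham of mean log2(FPKM + 1), with the standard error (SE) of a limma fit. A gene passed where its Benjamini-Hochberg adjusted p was under 0.05. Library totals inferred from the steps of the deposited values in the J and Sham libraries were 34.4 to 49.3, in units of 1000000 reads. Pearson correlations of log2(FPKM + 1) across genes were 0.931 to 0.966 within J, 0.893 to 0.939 within Sham and 0.686 to 0.805 between J and Sham. Of 14379 genes tested, 5905 passed (41.1%), of which 3023 were higher in J than in Sham (21.0% of those tested) and 2882 lower (20.0%). The J and Sham libraries did not overlap in 7908 genes (55.0%), with all J libraries above in 28.0% and below in 27.0%, and the median difference of all tested genes was 0.04. Rescaled so that every library has the same sum (TPM), the same libraries gave 2134 higher and 3350 lower, with the median of all genes moved by -0.15, so small differences depend on the scaling. The 38 gene lists described below held 722 tested genes. Some genes belong to several lists, and counts of members that passed are to be read beside the shares of all tested genes.

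Among the 38 lists, genes of neutrophils and of red cell formation had the highest medians in J minus Sham, and genes of cartilage and of joint surface and tendon the lowest. Markers of many cell types therefore moved with the group, and in whole tissue more cells of a type and more RNA per cell cannot be told apart. Whether tissue content shifted, and how far that would account for the differences of any other gene, was not tested.

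**Figure D1:**
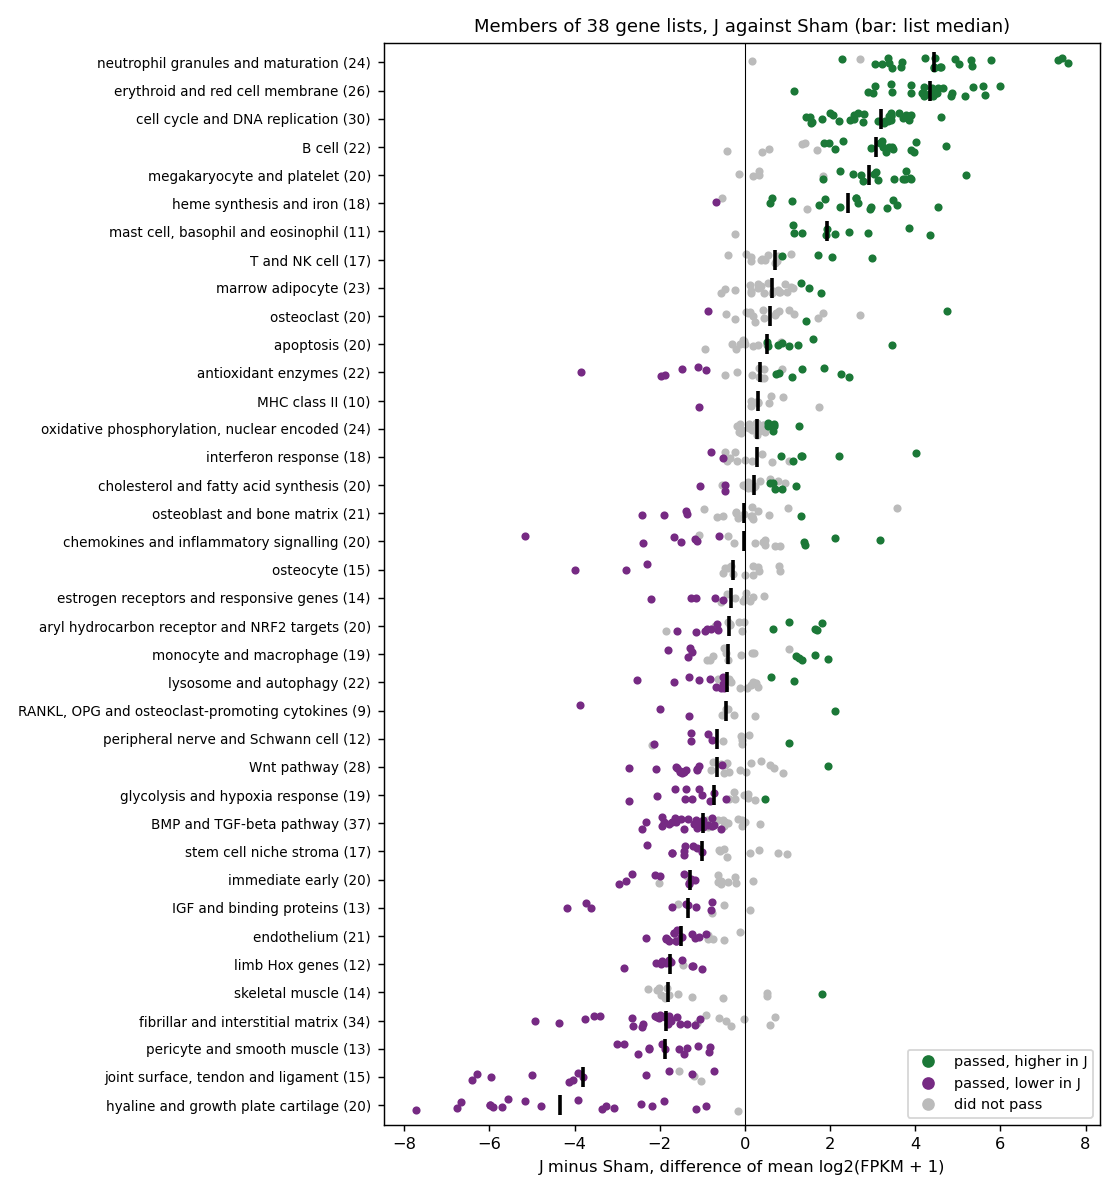
Difference between J and Sham in mean log2(FPKM + 1) (horizontal axis) of each tested member of 38 gene lists, with the number of tested members in brackets and the list median as a bar. Medians run from 4.45 (neutrophil genes) to -4.35 (cartilage genes), and all 26 erythroid and all 30 cell cycle genes passed as higher in J.

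All 26 tested erythroid genes rose in J, with a median difference of 4.36. Hba-a1 (ENSRNOG00000029886), an alpha globin chain of hemoglobin, had 14596, 13506 and 17356 FPKM in J 1, J 2 and J 3, against 709.6, 307 and 1946 FPKM in Sham 1, Sham 2 and Sham 3. Every J library was above every Sham library, and Sham 3 was the highest of the Sham libraries. The difference was 4.32 ± 0.65 (SE, adjusted p 0.00242). Globin genes have near-identical copies, among which the authors' counting could have split reads. Erythroid genes outside the globin family rose too. Slc4a1 (ENSRNOG00000020951), the anion exchanger of the red cell membrane, had 332, 459 and 309 FPKM in J and 5.66, 3.43 and 11.7 FPKM in Sham, a difference of 5.65 ± 0.38 (adjusted p 0.000204). Ahsp, the chaperone of free alpha globin, had 501, 654 and 649.9 FPKM in J and 6.85, 4.43 and 18.3 FPKM in Sham (6.00 ± 0.44). Its groups did not overlap, and neither did those of the erythroid nuclear protein Hemgn (5.36 ± 0.48), which is among the 10 genes with the largest rise.

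Regulators of the lineage and a gene of the membrane skeleton rose as well. Gata1 (ENSRNOG00000047663), the master regulator of the erythroid and megakaryocyte lineages, had 37.6, 33.5 and 41.2 FPKM in J and 0.827, 0.804 and 1.75 FPKM in Sham (4.20 ± 0.20, adjusted p 0.000188). Trim10, needed for terminal erythroid maturation in mouse cells, had 27.5, 31.9 and 26.9 FPKM in J and 0.383, 0.458 and 1.21 FPKM in Sham (4.17 ± 0.21). Ank1, the ankyrin that ties band 3 to the membrane skeleton, had 40.4, 47.6 and 35.4 FPKM in J and 2.05, 1.43 and 1.92 FPKM in Sham (3.91 ± 0.17). In all 3 genes the lowest J library was above the highest Sham library. Of the heme and iron list, 15 of 18 genes rose and 1 fell, with a median of 2.42. Slc25a37, the mitochondrial iron importer known as mitoferrin, had 124, 143 and 119.7 FPKM in J and 9.52, 9.77 and 10.5 FPKM in Sham (3.57 ± 0.13). Alas2, the first enzyme of erythroid heme synthesis, differed by 4.54 ± 0.50, Alad by 2.94 ± 0.16 and Fech, which inserts the iron, by 3.35 ± 0.19. Fth1, the ferritin heavy chain, was the gene that fell (-0.69 ± 0.23, adjusted p 0.0493), and it did not pass without J 1, J 2, J 3, Sham 1 or Sham 2.

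Because the erythroid genes moved together, promoters of 3 of them, Gata1, Trim10 and Klf1, are shown. They are the erythroid members with the smallest p in J against Sham among those that have a promoter entry. Each window is the 250 bases before the annotated start from RefSeq (build GRCr8). Klf1, the erythroid Krüppel-like factor, also passed (4.41 ± 0.23). Capitals mark AGATAA, a form of the letters that GATA1 binds, and CCACCC, a form of those that KLF1 binds, on either strand. TTATCT and GGGTGG are the same motifs read on the other strand. Other forms of both sites were not searched and are left unmarked. The Gata1 promoter lies at chrX:17201387-17201636 on the plus strand, that of Trim10 at chr20:1703470-1703719 on the minus strand and that of Klf1 at chr19:40158652-40158901 on the minus strand.
Gata1: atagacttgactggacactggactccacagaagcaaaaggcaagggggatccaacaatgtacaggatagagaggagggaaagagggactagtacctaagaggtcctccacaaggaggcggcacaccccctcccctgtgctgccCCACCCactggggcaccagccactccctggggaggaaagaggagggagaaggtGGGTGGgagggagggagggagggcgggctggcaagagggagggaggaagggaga
Trim10: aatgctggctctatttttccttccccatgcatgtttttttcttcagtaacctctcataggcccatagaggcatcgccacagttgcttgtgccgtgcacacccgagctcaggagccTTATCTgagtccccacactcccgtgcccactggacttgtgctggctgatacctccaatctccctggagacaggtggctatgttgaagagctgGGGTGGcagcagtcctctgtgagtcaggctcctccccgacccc
Klf1: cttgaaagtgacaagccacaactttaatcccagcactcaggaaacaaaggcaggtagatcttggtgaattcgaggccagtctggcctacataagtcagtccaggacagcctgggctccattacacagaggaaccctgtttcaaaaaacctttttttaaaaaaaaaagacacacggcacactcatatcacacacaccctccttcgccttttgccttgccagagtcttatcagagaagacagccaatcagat
The Gata1 window held CCACCC 2 times and AGATAA 0 times, and that of Trim10 held each 1 time. That of Klf1 held neither of these exact strings, which does not show that it lacks other forms of the sites. Of the 26 tested erythroid genes, 20 were matched to a promoter in the table. AGATAA stood in 6 of these 20 (30.0%), against 10.3% of all 33469 promoters, and CCACCC in 4 of 20 (20.0%), against 26.1% of all. The 20 are tested genes with 1 promoter each, while the 33469 are all entries, tested or not. The shares are therefore over unlike sets. These matches describe the letters of the windows and no binding was measured.

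Neutrophil genes had the highest median of all lists (4.45), with 22 of 24 tested members higher in J and 0 lower. The defensin Defa5, an antimicrobial peptide of granules, had 1823, 222 and 1872 FPKM in J and 2.46, 2.84 and 7.11 FPKM in Sham. J 2 was the lowest J library by a wide margin and still above all Sham libraries. The difference was 7.58 ± 0.84 (adjusted p 0.000773). Np4 (7.35 ± 0.74), RatNP-3b (7.45 ± 0.92) and Defa5-ps2 (6.29 ± 1.01) belong to the same family, whose near-identical copies could share reads. Mmp8 (ENSRNOG00000009907), the collagenase of neutrophil granules, had 316, 255 and 382 FPKM in J and 10.7, 13.2 and 11.8 FPKM in Sham (4.61 ± 0.18, adjusted p 0.000188). S100a8 and S100a9, which form calprotectin, the main cytosolic protein of neutrophils, differed by 5.31 ± 0.43 and 5.33 ± 0.47. S100a8 had 6698, 4143 and 10068 FPKM in J and 136, 120.4 and 265 FPKM in Sham. Mpo, the myeloperoxidase of primary granules, had 298, 104 and 299 FPKM in J and 2.79, 8.84 and 23.1 FPKM in Sham (4.45 ± 0.71). J 2 was again the lowest of its group. Camp (5.79 ± 0.67), Lcn2 (3.45 ± 0.18) and Pglyrp1 (3.69 ± 0.21), which code for antimicrobial and iron-binding granule proteins, passed as well. The members that did not pass were Mmp9, a gelatinase also made by osteoclasts (2.71 ± 1.39, 95% interval -0.58 to 6.01), and Anxa1 (0.16), both chosen after their values were seen.

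Platelet genes rose in 15 of 20 tested cases (median 2.91). Ppbp, the platelet basic protein, had 219, 145 and 184 FPKM in J and 0.346, 6.96 and 10.4 FPKM in Sham (5.19 ± 0.75, adjusted p 0.00214). Sham 1 was far below the other Sham libraries, and the groups did not overlap. Pf4, platelet factor 4, had 354, 489 and 494 FPKM in J and 43.1, 43.4 and 65.8 FPKM in Sham (3.12 ± 0.23). Gp1ba, the platelet receptor for von Willebrand factor, differed by 2.77 ± 0.18, and Nfe2, a transcription factor of platelet release, by 3.90 ± 0.23. Nfe2 is counted in the erythroid list as well. Of 11 mast cell, basophil and eosinophil genes, 10 rose (median 1.94). They include the IgE receptor chain Ms4a2 (3.85 ± 0.37), the mast cell chymase Cma1 (2.45 ± 0.20) and Prg2, the eosinophil major basic protein, with 85.5, 103 and 72.3 FPKM in J and 8.72, 0.479 and 4.29 FPKM in Sham (4.36 ± 0.63).

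All 30 tested genes of the cell cycle and DNA replication list rose in J (median 3.20). Mki67 (ENSRNOG00000028137), the proliferation marker Ki-67, had 75.0, 70.5 and 70.8 FPKM in J and 1.50, 1.46 and 3.38 FPKM in Sham, a difference of 4.61 ± 0.24 (adjusted p 0.000188). The 3 J libraries lay close together and all 3 Sham libraries were low. The centromere protein gene Cenpf (3.14 ± 0.16) and the S phase cyclin Ccna2 (3.63 ± 0.21) passed, as did the replication clamp Pcna, with 166, 107 and 117 FPKM in J and 38.2, 42.2 and 51.2 FPKM in Sham (1.53 ± 0.21). Birc5, the survivin of dividing cells, had 28.5, 20.1 and 24.9 FPKM in J and 1.17, 1.02 and 1.78 FPKM in Sham (3.46 ± 0.19). It is counted in the apoptosis list, where 8 of 20 members rose, 0 fell and the median was 0.52, with Bid at 1.60 ± 0.15 and the survival gene Bcl2l1 at 1.02 ± 0.11. Without J 1 or without Sham 1, 5 members of the apoptosis list passed as higher.

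B cell genes rose in 16 of 22 tested cases (median 3.07). Igll1, the surrogate light chain of precursor B cells, had 75.1, 32.0 and 46.3 FPKM in J and 0.172, 0.580 and 2.47 FPKM in Sham (4.73 ± 0.46, adjusted p 0.000514). Dntt, the terminal transferase of lymphoid precursors, had 47.4, 20.7 and 35.5 FPKM in J and 0.259, 0.967 and 2.696 FPKM in Sham (4.01 ± 0.45). The B lineage factor Pax5 had 63.9, 38.1 and 49.4 FPKM in J and 3.58, 2.12 and 6.90 FPKM in Sham (3.38 ± 0.36). None of these 3 genes overlapped between the groups, and Sham 3 was the highest Sham library in each. Cd79a, a chain of the B cell receptor, differed by 3.23 ± 0.57. Jchain, the joining chain made by plasma cells, had 1486, 2444 and 1166 FPKM in J and 149.9, 1041 and 1456 FPKM in Sham. The J and Sham libraries overlapped and the gene did not pass (1.40 ± 0.84, 95% interval -0.59 to 3.39). Of 17 T and NK cell genes 4 rose, near the 21.0% of all tested genes that did. The named ones were the NK receptor Ncr1 (2.05 ± 0.21), the interleukin 7 receptor Il7r (1.72 ± 0.18) and the cytotoxic granule gene Nkg7 (2.99 ± 0.40). The T cell receptor chain Cd3g did not pass (1.08 ± 0.50, 95% interval -0.11 to 2.27).

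**Figure D2:**
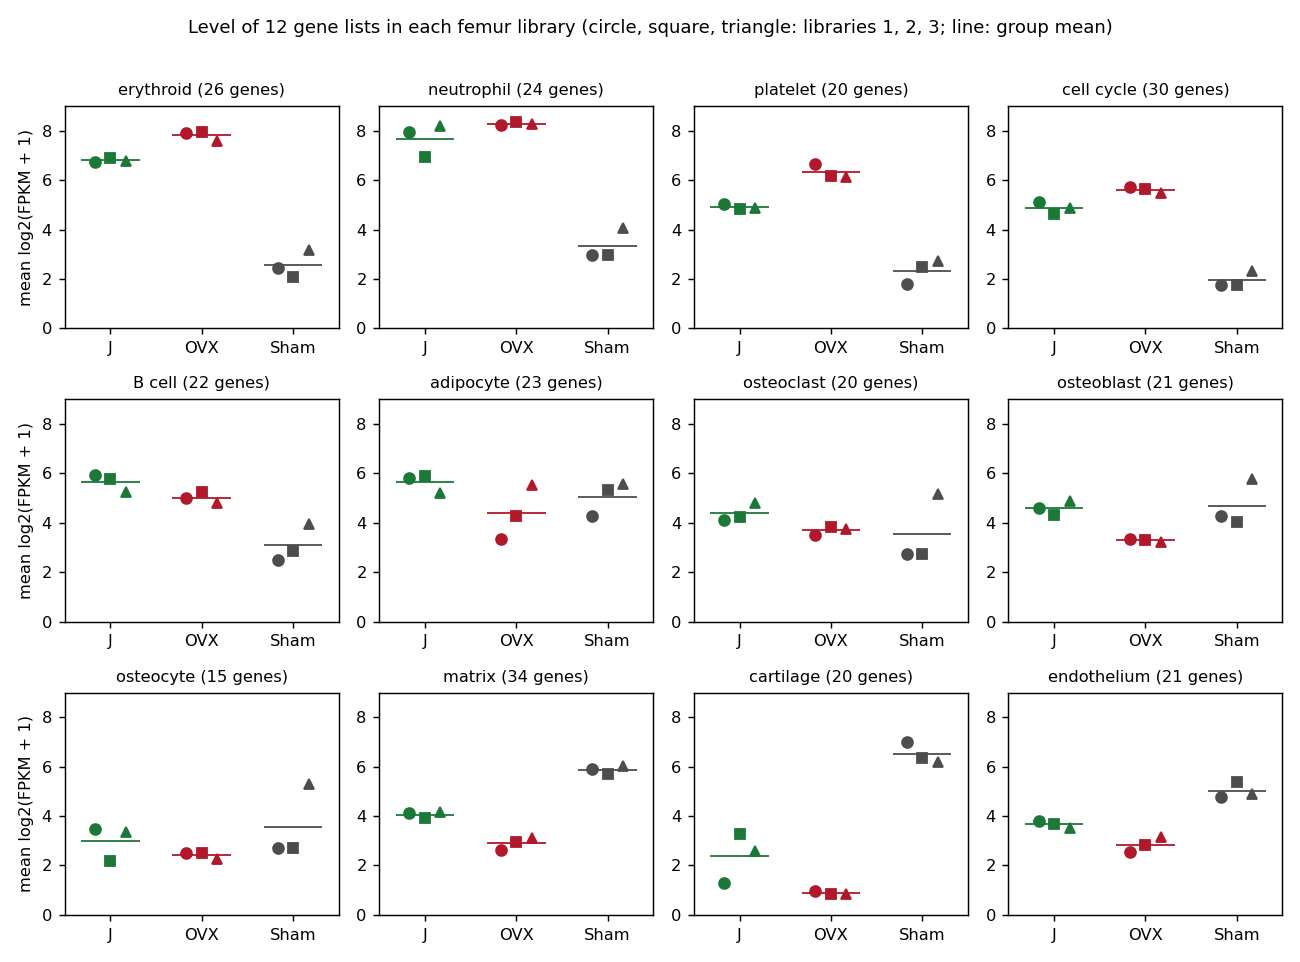
Level of 12 gene lists in each library, as the mean of log2(FPKM + 1) over the tested members, for J, OVX and Sham, with libraries 1, 2 and 3 as circle, square and triangle and the group mean as a line. The 3 J libraries are above all Sham libraries for erythroid genes (6.75 to 6.88 against 2.06 to 3.17) and below all of them for cartilage genes (1.30 to 3.26 against 6.19 to 7.01), and Sham 3 stands above Sham 1 and Sham 2 for osteoclast, osteoblast and osteocyte genes.

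Cartilage genes formed the most reduced list, with 19 of 20 tested members lower in J, 0 higher and a median of -4.35. Acan (ENSRNOG00000028992), which codes for aggrecan, the main proteoglycan of hyaline cartilage, had 0.136, 14.2 and 5.57 FPKM in J and 559.7, 259 and 200.1 FPKM in Sham, a difference of -5.99 ± 0.92 (adjusted p 0.00269). Col2a1, the fibrillar collagen of cartilage, had 0.222, 8.68 and 6.95 FPKM in J and 264, 217 and 173 FPKM in Sham (-5.57 ± 0.75, adjusted p 0.00162). The groups were far apart in both genes, and J 1 was the lowest library. Clec3a, a cartilage lectin with the lowest difference of all named genes, was listed at 0 in J 1 and had 118 FPKM in J 2 and 19.5 FPKM in J 3, against 3574, 2685 and 2374 FPKM in Sham (-7.72 ± 1.55, adjusted p 0.00805). Col10a1, the collagen of hypertrophic chondrocytes in the growth plate, had 0.279, 31.7 and 11.4 FPKM in J and 805, 669 and 209 FPKM in Sham (-5.91 ± 1.17). Cytl1 (-6.77 ± 0.88), Chad (-6.68 ± 1.20) and Ucma (-5.99 ± 0.94), secreted or matrix products of chondrocytes, complete the cartilage members among the 10 genes with the largest fall. Col9a3 (-3.92 ± 0.35), the cartilage protein Mia (-3.08 ± 0.23) and the chondrocyte factor Sox5 (-2.43 ± 0.20) also fell. Summed over all 25 listed cartilage genes in the files, the FPKM ran from 73.9 to 458 in J libraries and from 7661 to 15402 in Sham libraries, and no member was at 0 in all libraries of either group.

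Of the joint surface, tendon and ligament list, 12 of 15 tested genes fell and 0 rose (median -3.81). Prg4, lubricin (ENSRNOG00000002385), which lubricates joints, had 10.7, 166 and 81.7 FPKM in J and 5179.9, 6926 and 2207 FPKM in Sham (-6.30 ± 0.97, adjusted p 0.00273). The highest J library, J 2, was still below the lowest Sham library. Cilp, a protein of the middle zone of articular cartilage, had 3.80, 23.1 and 5.45 FPKM in J and 1340.1, 503 and 666 FPKM in Sham (-6.40 ± 0.65). The tendon proteoglycan Fmod (-4.04 ± 0.42) and the secreted protein Angptl7 (-5.00 ± 0.64) fell, as did clusterin (Clu, -4.13 ± 0.57). Ecrg4 (-5.82 ± 0.86) and the protease gene Htra4 (-5.96 ± 1.01) were the other genes among the 10 largest falls. Limb patterning genes also fell, 11 of 12 tested (median -1.76). Pitx1, a hindlimb identity factor, had 1.31, 1.08 and 0.921 FPKM in J and 22.9, 14.1 and 8.57 FPKM in Sham (-2.85 ± 0.32). Of 12 nerve and Schwann cell genes 5 fell and 1 rose (median -0.65), with the myelin protein Pmp22 at -2.14 ± 0.19, and 3 fell without Sham 1 or Sham 2. Among the limb genes, Hoxa11 differed by -1.86 ± 0.16, Hoxd9 by -2.10 ± 0.25 and Hoxa9 by -1.02 ± 0.23.

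Interstitial matrix genes fell in 26 of 34 tested cases, with 0 higher and a median of -1.84. Dcn, decorin, had 71.7, 142 and 89.6 FPKM in J and 3846, 1452 and 1461 FPKM in Sham (-4.36 ± 0.45, adjusted p 0.000582). Fn1, fibronectin, had 29.3, 146 and 87.5 FPKM in J and 3519, 2929 and 1099 FPKM in Sham (-4.94 ± 0.67, adjusted p 0.00165). Neither gene overlapped between the groups, although J 1 to J 3 of Fn1 were spread. Col15a1, a collagen of vascular and muscle basement membranes, had 2.48, 4.51 and 4.20 FPKM in J and 62.1, 46.6 and 38.4 FPKM in Sham (-3.40 ± 0.25). Col14a1 (-3.54 ± 0.28) and P4ha1 (-2.64 ± 0.18), a subunit of the enzyme that hydroxylates collagen prolines, fell too. In contrast, Col1a1, the collagen of bone that fibroblasts also make, did not pass and is given with the bone genes.

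Vessel and stromal genes were lower as well. Of 21 endothelial genes 16 fell and 0 rose (median -1.51), and all 13 pericyte and smooth muscle genes fell (median -1.87). Eng, the endothelial TGF-beta co-receptor endoglin, had 15.7, 15.8 and 15.9 FPKM in J and 52.5, 75.2 and 53.3 FPKM in Sham (-1.85 ± 0.17). Flt1, a VEGF receptor, differed by -1.78 ± 0.18, Emcn, endomucin of sinusoids, by -1.62 ± 0.20, Plvap, of fenestrated vessels, by -2.31 ± 0.28 and Pecam1, an adhesion molecule of all endothelium, by -1.59 ± 0.44. Pecam1 did not pass without J 1, J 3, Sham 1 or Sham 2 in turn. Acta2, smooth muscle actin, had 42.1, 29.9 and 12.9 FPKM in J and 209.8, 438 and 103 FPKM in Sham (-3.01 ± 0.60). Cspg4, the pericyte proteoglycan NG2, had 6.39, 4.90 and 5.57 FPKM in J and 27.1, 22.2 and 24.8 FPKM in Sham (-1.96 ± 0.15, adjusted p 0.000244). In the list of the stem cell niche, 9 of 17 genes fell and 0 rose (median -1.001), with the mesenchymal receptor Pdgfra at -2.31 ± 0.19 and the Notch ligand Jag1 at -1.21 ± 0.19. Cxcl12, the chemokine that holds stem cells in marrow, had 452, 375 and 476 FPKM in J and 137, 373 and 783 FPKM in Sham. These libraries overlapped and the gene did not pass (0.33 ± 0.58, 95% interval -1.04 to 1.71). Its receptor Cxcr4, which marrow leukocytes carry, rose, with 162, 170.3 and 157 FPKM in J and 14.6, 19.0 and 18.3 FPKM in Sham (3.17 ± 0.14, adjusted p 0.000188).

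Genes of the bone cells themselves mostly did not pass. Counts in the osteoblast, osteocyte and osteoclast lists are to be read beside the 21.0% higher and 20.0% lower of all tested genes. The lower counts of the osteoblast and osteocyte lists, given below, were near that 20.0%. The level of the osteocyte list, as mean log2(FPKM + 1), was 3.47, 2.19 and 3.35 in J 1, J 2 and J 3, against 2.702, 2.71 and 5.29 in Sham 1, Sham 2 and Sham 3. That of the osteoclast list was 4.10, 4.25 and 4.82 in J and 2.74, 2.73 and 5.17 in Sham, and that of the osteoblast list 4.60, 4.30 and 4.87 in J and 4.26, 4.05 and 5.78 in Sham. Sham 3 was the highest of the 6 libraries in all 3 lists, while Sham 1 and Sham 2 were below all J libraries in the osteoclast and osteoblast lists. Whatever sets Sham 3 apart was not tested, and bone cell results are therefore given with and without it. Sham 3 was singled out by these same genes. For genes highest in Sham 3, leaving it out raises J minus Sham by construction. Passes without Sham 3 therefore show how far a result depends on that library and are no evidence of a rise in J.

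Of 21 tested osteoblast and bone matrix genes, 1 rose and 4 fell (median -0.01). Bglap, osteocalcin, had 807, 574 and 834 FPKM in J and 34.0, 6.43 and 881 FPKM in Sham. Sham 3 was above all J libraries and Sham 1 and Sham 2 far below them, and the difference of 3.57 ± 1.57 did not pass (adjusted p 0.112, 95% interval -0.15 to 7.30). Without Sham 3, Bglap passed at 5.50 (adjusted p 0.00148). Col1a1 had 572, 531 and 261 FPKM in J and 179.7, 118 and 448 FPKM in Sham (1.02 ± 0.53, 95% interval -0.25 to 2.28), and it passed at 1.55 without Sham 3. The osteoblast transcription factors gave small differences with wide intervals. Runx2 had 13.3, 7.17 and 17.8 FPKM in J and 8.04, 7.60 and 27.9 FPKM in Sham (-0.01 ± 0.53, 95% interval -1.27 to 1.24). Sp7, osterix, had 4.96, 2.77 and 9.97 FPKM in J and 2.66, 1.86 and 16.6 FPKM in Sham (0.14 ± 0.73, 95% interval -1.59 to 1.87). Spp1, osteopontin, differed by 0.30 ± 1.22 (95% interval -2.60 to 3.20). The gene that rose was Phospho1, a phosphatase that starts mineralisation in matrix vesicles and is also made by red cell precursors, with 10.9, 16.4 and 10.4 FPKM in J and 3.58, 3.28 and 6.76 FPKM in Sham (1.32 ± 0.28). Those that fell were Sparc, osteonectin (-1.38 ± 0.24), Enpp1, which makes pyrophosphate (-2.43 ± 0.24), Omd, osteomodulin (-1.91 ± 0.57), and the homeobox factor Msx2 (-1.36 ± 0.36), the last 2 chosen after their values were seen. Without Sham 3, 5 members rose and the median was 0.56, and without J 2, 2 members fell and the median was 0.09. The median was -0.08 without J 1, -0.28 without J 3, -0.28 without Sham 1 and -0.35 without Sham 2.

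Osteocyte genes varied widely among libraries of each group. Sost, the Wnt inhibitor sclerostin made by osteocytes, had 32.5, 0.722 and 14.0 FPKM in J and 0.280, 0.432 and 313 FPKM in Sham (0.20 ± 2.24, 95% interval -5.13 to 5.52). Sham 3 was the highest library, Sham 1 and Sham 2 were the lowest, and J 2 was close to them. Dmp1, a matrix protein of osteocytes, had 80.5, 7.66 and 69.7 FPKM in J and 27.5, 10.9 and 283 FPKM in Sham (-0.32 ± 1.32). Of 15 tested members, 0 rose and 3 fell (median -0.28), namely Ackr3, a decoy receptor of CXCL12 (-2.79 ± 0.29), Fbln7, a fibulin (-3.99 ± 0.58), and podoplanin (Pdpn, -2.29 ± 0.44), each of which other cells of connective tissue or vessels make as well. Without Sham 3, 3 members of the osteocyte list passed as higher and the median was 1.00. It was 0.36 without J 2, and -0.61 without J 1, -0.66 without Sham 1 and -0.81 without Sham 2.

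In the osteoclast list, 2 of 20 tested genes rose and 1 fell (median 0.58). Ctsk, cathepsin K, the collagenase of osteoclasts, had 225, 426 and 699 FPKM in J and 65.8, 60.3 and 1494 FPKM in Sham. Acp5, the tartrate-resistant acid phosphatase, had 97.5, 131 and 256 FPKM in J and 14.5, 12.4 and 449 FPKM in Sham. In both genes Sham 1 and Sham 2 lay below all J libraries and Sham 3 above them, and neither passed (Ctsk 1.15 ± 1.22, 95% interval -1.76 to 4.07; Acp5 1.72 ± 1.31, 95% interval -1.40 to 4.85). Without Sham 3, Ctsk passed at 2.67 and Acp5 at 3.38, and 13 of the 20 members were higher in J, so this count rests on Sham 3. The median of the list was 1.18 without Sham 3, and it was 0.29 without J 3, 0.18 without Sham 1 and 0.14 without Sham 2, with 1 gene higher in each of these. Car2, the carbonic anhydrase of osteoclasts that red cells also hold, rose (4.75 ± 0.71), and so did the osteoclast receptor Oscar (1.42 ± 0.39, adjusted p 0.0265), which lost its call without J 1, J 3, Sham 1 or Sham 2. Nfatc1, the transcription factor that drives osteoclast formation, fell, with 9.55, 10.9 and 9.69 FPKM in J and 19.0, 15.6 and 23.8 FPKM in Sham (-0.87 ± 0.18).

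**Figure D3:**
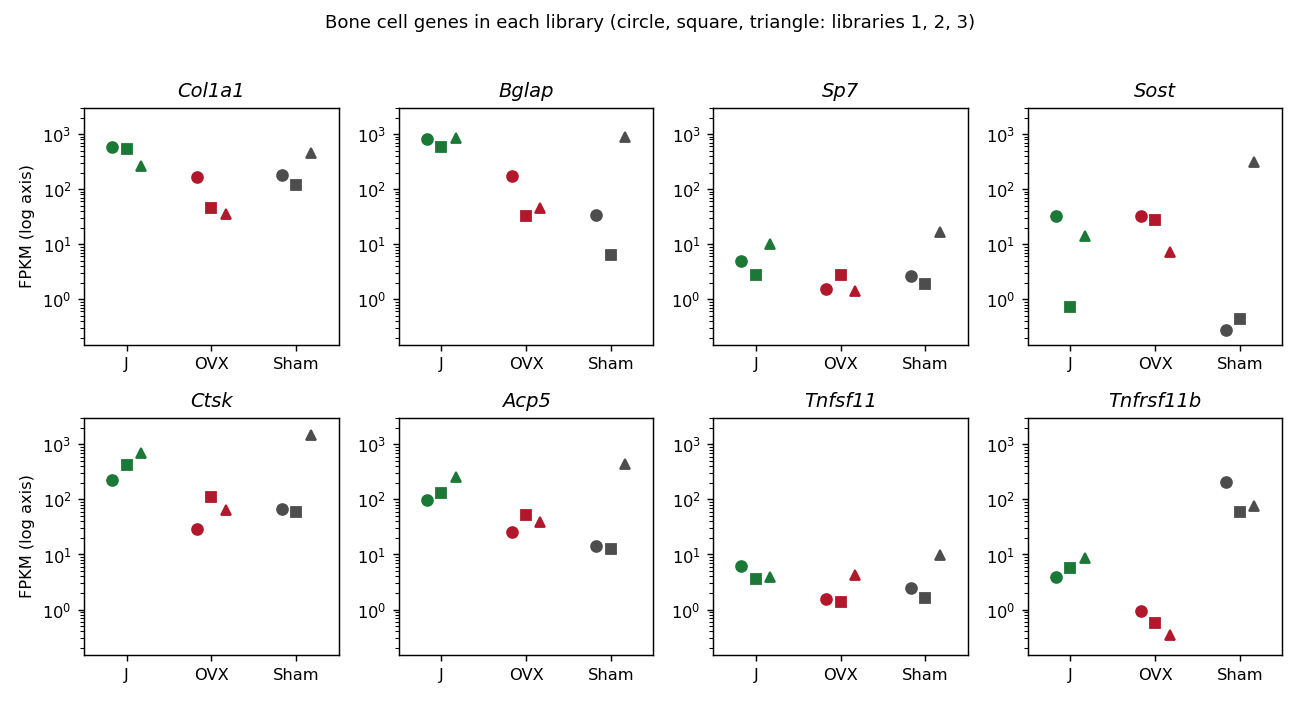
FPKM of 8 bone cell genes in each J, OVX and Sham library on a common log axis, with libraries 1, 2 and 3 as circle, square and triangle. Sham 3 is far above Sham 1 and Sham 2 for all genes shown except Tnfrsf11b and Col1a1, and Tnfrsf11b is the gene whose J and Sham libraries are clearly apart (3.86 to 8.69 FPKM in J, 59.3 to 204 FPKM in Sham).

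Among the signals to osteoclasts, the decoy receptor and a further receptor of RANKL fell while RANKL itself did not pass. Tnfrsf11b (ENSRNOG00000008336), osteoprotegerin, had 3.86, 5.59 and 8.69 FPKM in J and 204, 59.3 and 77.3 FPKM in Sham. All J libraries were below all Sham libraries, and Sham 3 did not stand apart (-3.87 ± 0.48, adjusted p 0.00117). Its ligand RANKL (Tnfsf11) had 6.14, 3.56 and 3.89 FPKM in J and 2.46, 1.61 and 9.84 FPKM in Sham (0.23 ± 0.52, 95% interval -1.01 to 1.48), and without Sham 3 it passed as higher at 0.85. Csf1, the macrophage growth factor osteoclast precursors need, differed by -0.53 ± 0.28 (95% interval -1.19 to 0.13). Lgr4, reported in mouse as a further receptor of RANKL, fell, with 4.64, 4.22 and 4.23 FPKM in J and 27.9, 17.2 and 17.9 FPKM in Sham (-2.003 ± 0.20), as did the cytokine Tnfsf12 (-1.31 ± 0.14). Il1b, an inflammatory cytokine that promotes resorption, rose (2.11 ± 0.41, adjusted p 0.00730) and was chosen after its values were seen. The list had 9 tested genes, of which 1 rose and 3 fell, beside 21.0% higher and 20.0% lower of all tested genes.

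Fat cell genes overlapped between the groups. The level of the marrow adipocyte list was 5.83, 5.90 and 5.21 in J and 4.26, 5.34 and 5.58 in Sham, with 3 of 23 genes higher, 0 lower and a median of 0.63. Adipoq, adiponectin, had 454, 753 and 337 FPKM in J and 92.4, 393 and 853 FPKM in Sham (0.63 ± 0.78, 95% interval -1.22 to 2.47). Pparg, the regulator of fat cell formation, had 21.6, 16.2 and 15.8 FPKM in J and 8.07, 18.5 and 26.3 FPKM in Sham (0.14 ± 0.39, 95% interval -0.79 to 1.07). The genes that rose were Dgat2, an enzyme of triglyceride synthesis (1.79 ± 0.48), leptin (Lep, 1.31 ± 0.35) and resistin (Retn, 1.495 ± 0.48), and none of the 3 passed without J 1, while 5 genes of the list passed as higher without Sham 3. The median of the list was 0.17 without Sham 1 and 0.98 without Sham 3. Skeletal muscle genes, which a femur would carry only as attached tissue, had levels of 1.93, 2.98 and 0.96 in J and 4.21, 3.68 and 1.44 in Sham. Sham 3 was lower than Sham 1 and Sham 2, and 1 of 14 genes passed, Tnnt1, as higher (1.82 ± 0.37). Acta1, the actin of skeletal muscle, had 10.2, 61.6 and 0.114 FPKM in J and 132, 75.6 and 7.53 FPKM in Sham (-2.27 ± 1.59, 95% interval -6.06 to 1.52). Without Sham 3, 8 muscle genes passed as lower in J.

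Signalling lists of the skeleton were mostly lower in J. Of 37 tested BMP and TGF-beta genes, 23 fell and 0 rose (median -0.99). Tgfbr3, betaglycan, a co-receptor of TGF-beta, had 16.0, 16.6 and 14.3 FPKM in J and 76.0, 79.0 and 110.1 FPKM in Sham (-2.41 ± 0.17, adjusted p 0.000230). The ligand Bmp5 had 4.91, 4.89 and 4.85 FPKM in J and 21.0, 16.4 and 15.5 FPKM in Sham (-1.65 ± 0.15), and Bmp6, a ligand that also controls iron uptake, differed by -1.44 ± 0.28. Smad3, the mediator of TGF-beta in the nucleus, differed by -1.62 ± 0.16, and the BMP target Id1 by -0.55 ± 0.16, a call that was lost without J 1, J 2, J 3 or Sham 2. In the Wnt list 13 of 28 genes fell and 1 rose (median -0.66). The secreted inhibitor Wif1 had 11.0, 13.9 and 26.2 FPKM in J and 87.8, 106 and 148 FPKM in Sham (-2.73 ± 0.33, adjusted p 0.00114), and the receptors Fzd7 (-1.39 ± 0.16) and Fzd2 (-1.43 ± 0.17) fell with it. Without J 1, 8 Wnt genes fell, and the median was -1.04 without Sham 1. The gene that rose, Lef1, a nuclear effector of Wnt signals that precursor lymphocytes also express, differed by 1.95 ± 0.41 and was chosen after its values were seen. Beta-catenin (Ctnnb1) did not pass (-0.57 ± 0.23, 95% interval -1.10 to -0.03).

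The IGF list had 9 of 13 genes lower and 0 higher (median -1.33). Stc2, a stanniocalcin that blocks release of IGF, had 0.458, 2.31 and 1.84 FPKM in J and 44.3, 44.8 and 38.4 FPKM in Sham (-4.18 ± 0.31, adjusted p 0.000230). Igfbp6, a binding protein with preference for IGF2, had 2.64, 3.87 and 6.73 FPKM in J and 79.6, 63.6 and 61.9 FPKM in Sham (-3.74 ± 0.28). The protease Htra1 (-3.62 ± 0.46) and Igfbp7 (-1.33 ± 0.30) fell as well. Of 14 genes of estrogen receptors and responses, 5 fell and 0 rose (median -0.32), and 2 to 3 fell without J 1, Sham 1 or Sham 2, with a median of -0.52 without Sham 1. Esr1, estrogen receptor alpha, stayed under the mean of 1 FPKM needed for a test, with 0.951, 0.312 and 0.325 FPKM in J and 0.257, 0.399 and 2.00 FPKM in Sham. Gper1, a membrane estrogen receptor, had 1.62, 1.18 and 1.35 FPKM in J and 2.48, 3.14 and 3.08 FPKM in Sham (-0.71 ± 0.17, adjusted p 0.0160), and it did not pass without Sham 2. Cyclin D1 (Ccnd1, -1.14 ± 0.19) and the kinase Sgk1 (-2.21 ± 0.16) fell, and both answer to many signals besides estrogen.

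Metabolic and stress genes changed in both directions. Of all tested genes, 21.0% were higher and 20.0% lower in J, and the counts below are to be read against these shares. Of 22 antioxidant genes 7 rose and 6 fell (median 0.35). Those that rose include Prdx2, an abundant peroxiredoxin of red cells, with 398, 448 and 446 FPKM in J and 72.2, 69.9 and 92.3 FPKM in Sham (2.46 ± 0.16), Gpx1 (1.86 ± 0.19) and Msrb1 (2.26 ± 0.21). Gpx7, a peroxidase of the endoplasmic reticulum, fell (-1.48 ± 0.13). In the list of aryl hydrocarbon receptor and NRF2 targets 5 rose and 7 fell of 20. Gclm, which with Gclc limits glutathione synthesis, had 42.4, 55.0 and 42.9 FPKM in J and 11.5, 11.5 and 14.6 FPKM in Sham (1.82 ± 0.16), and Gclc differed by 1.03 ± 0.15. The lower count of this list was 4 without J 1, J 2, Sham 1 or Sham 2. Of 19 genes of glycolysis and hypoxia, 11 fell and 1 rose (median -0.73), with the glucose transporter Slc2a1 at -2.73 ± 0.31 and the hypoxia target adrenomedullin (Adm) at -2.06 ± 0.20, and 7 fell without J 1. Nuclear genes of oxidative phosphorylation gave 6 higher of 24 and 0 lower (median 0.29), and this count was 1 after rescaling to TPM, 1 without J 1, Sham 1 or Sham 2, 3 without J 3 and 10 without Sham 3. Atp5pb, a subunit of ATP synthase, had 107, 100.4 and 88.1 FPKM in J and 51.3, 60.9 and 72.0 FPKM in Sham (0.68 ± 0.17). Of 20 genes of cholesterol and fatty acid synthesis, 5 rose and 3 fell (median 0.22), near the shares of all tested genes. Mvd, an enzyme of the mevalonate pathway, was higher (1.19 ± 0.26) and Lss was lower (-1.06 ± 0.21), and 1 gene was higher after rescaling to TPM or without J 1, Sham 1 or Sham 2. Lysosome and autophagy genes gave 10 lower and 2 higher of 22, with cathepsin L (Ctsl) at -2.53 ± 0.29, and the lower count was 4 without J 1 or Sham 1 and 6 without Sham 2.

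Immune signalling lists were mixed, and their counts are to be read beside the 21.0% higher and 20.0% lower of all tested genes. In the interferon list 6 of 18 genes rose and 2 fell (median 0.28), and Rsad2, the antiviral protein viperin, had 61.2, 116 and 41.5 FPKM in J and 3.13, 1.68 and 5.61 FPKM in Sham (4.02 ± 0.45, adjusted p 0.000808). The median of this list was 0.16 without Sham 1, 0.18 without J 3 and 0.43 without Sham 3. Ifit1 differed by 2.22 ± 0.34 and Ifi27 by -0.80 ± 0.19. Of 20 chemokine and inflammatory genes, 4 rose and 7 fell (median -0.01). Without J 1, J 2, J 3 or Sham 2 in turn, 2 to 4 fell. The median was -0.29 without J 2 and -0.28 without Sham 1, but 0.04 without J 1, 0.08 without Sham 2, 0.19 without Sham 3 and 0.25 without J 3. Cxcl13, which attracts B cells, had 0.408, 3.41 and 7.82 FPKM in J and 279, 157 and 57.0 FPKM in Sham (-5.17 ± 0.79, adjusted p 0.00263), and the interleukin 1 receptor Il1r1 fell (-2.38 ± 0.13). Of 19 monocyte and macrophage genes 5 rose and 4 fell. Lysozyme (Lyz2, 1.27 ± 0.28), the integrin Itgam, which neutrophils share (1.96 ± 0.28), and the monocyte receptor Ccr2 (1.33 ± 0.23) were higher, and Cd14 (-1.80 ± 0.21) was lower. The split was 3 higher and 3 lower without J 1 and 4 higher and 7 lower after rescaling to TPM. In the immediate early list 10 of 20 fell and 0 rose (median -1.28), with Klf4 at -2.78 ± 0.22 and Fosl2 at -1.16 ± 0.16. The lower count of this list was 6 without J 2 or Sham 2 and 15 without Sham 1. Egr1 had 58.3, 33.1 and 37.4 FPKM in J and 36.6, 175 and 198 FPKM in Sham, overlapped between the groups and did not pass (-1.36 ± 0.63). Junb was listed at 0 in all J and Sham libraries.

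The J libraries also differed among themselves. J 2 was the lowest of its group for neutrophil genes, at 7.93, 6.93 and 8.19 in J 1, J 2 and J 3, and the highest for cartilage genes, at 1.30, 3.26 and 2.60. For MHC class II genes the J levels were 5.04, 6.84 and 5.03, against 4.86, 4.89 and 5.98 in Sham. RT1-Ba, an MHC class II alpha chain, had 68.7, 320.2 and 63.9 FPKM in J and 58.6, 70.6 and 246 FPKM in Sham (0.15 ± 0.77, 95% interval -1.67 to 1.98), and the invariant chain Cd74 had 311, 1076 and 278 FPKM in J and 207, 230.4 and 599.7 FPKM in Sham (0.57 ± 0.62). J 2 was above every other J and Sham library in both genes. Of 10 tested MHC class II genes, 1 passed, the protease Ctss, as lower (-1.07 ± 0.32), and it did not pass without J 1, J 3, Sham 1 or Sham 2. The median of this list was 0.31 with all libraries, -0.10 without J 2, 0.17 without Sham 2, 0.56 without J 1, 0.66 without J 3 and 0.87 without Sham 3.

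Values of OVX, the saline group with the same surgery, are set beside those of J below. Both differences use the same 3 Sham libraries, so a likeness between them is no separate evidence. In a fit of the 9 libraries, 8172 genes passed in OVX against Sham (56.8%), 3774 of them up (26.2%) and 4398 down (30.6%). The tested genes were those kept by their mean FPKM over the J and Sham libraries only. The 5905 genes of J against Sham came from the fit of 6 libraries. That count therefore cannot be set against the 8172 as a measure of distance from Sham. Between J and OVX 1318 passed (9.17%), with 759 up in J (5.28%) and 559 down (3.89%). Among erythroid genes the median was 4.36 in J minus Sham and 5.33 in OVX minus Sham, and 12 of 26 passed as lower in J than in OVX, with 0 higher. Platelet genes had medians of 2.91 in J and 4.28 in OVX against Sham, and 16 of 20 were lower in J than in OVX. Gata1 had 37.6, 33.5 and 41.2 FPKM in J, 95.98, 80.0 and 76.6 FPKM in OVX and 0.827, 0.804 and 1.75 FPKM in Sham. The J libraries lay apart from both other groups, and J minus OVX was -1.15 ± 0.18 (adjusted p 0.0168). Gp1ba had 11.6, 9.24 and 10.9 FPKM in J, 39.2, 25.8 and 24.5 FPKM in OVX and 0.495, 0.618 and 0.987 FPKM in Sham, with J minus OVX at -1.39 ± 0.20 (adjusted p 0.0157). Heme genes (11 of 18) and cell cycle genes (10 of 30) were also lower in J than in OVX. Of 24 neutrophil genes 1 was, with medians of 4.45 in J and 5.00 in OVX against Sham.

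Connective tissue genes gave the opposite order. Matrix genes had medians of -1.84 in J and -3.13 in OVX against Sham, and 15 of 34 were higher in J than in OVX, with 0 lower. Sparc had 609, 596 and 421 FPKM in J, 138, 135 and 192 FPKM in OVX and 1551, 1182 and 1467 FPKM in Sham. The 3 groups did not overlap, and J minus OVX was 1.80 ± 0.21 (adjusted p 0.0113). Dcn had 71.7, 142 and 89.6 FPKM in J, 20.5, 26.8 and 35.4 FPKM in OVX and 3846, 1452 and 1461 FPKM in Sham (1.81 ± 0.41 in J minus OVX). Col1a1, which did not pass against Sham, had 164, 45.6 and 35.3 FPKM in OVX and passed as higher in J than in OVX (2.72 ± 0.65, adjusted p 0.0396). Tnfrsf11b had 0.958, 0.581 and 0.351 FPKM in OVX, below all J libraries, and J minus OVX was 2.07 ± 0.44 (adjusted p 0.0288). Endothelial genes had medians of -1.51 in J and -2.26 in OVX against Sham, and 8 of 21 were higher in J than in OVX. In the cartilage list, 1 of 20 genes passed upward and 1 downward between J and OVX, with medians of -4.35 and -5.31 against Sham. Acan had 0.0354, 0.0269 and 0 FPKM in OVX, below all J libraries, and J minus OVX was 2.25 ± 0.81 (adjusted p 0.109). B cell genes had medians of 3.07 in J and 2.16 in OVX against Sham, with 0 of 22 passing between J and OVX. Osteoclast genes had medians of 0.58 and -0.28, and adipocyte genes of 0.63 and -0.66, in J and OVX against Sham, the J medians being those that moved with single libraries, and 0 genes of both lists passed between J and OVX. A miss of the threshold does not show that J and OVX were alike in these genes.

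**Figure D4:**
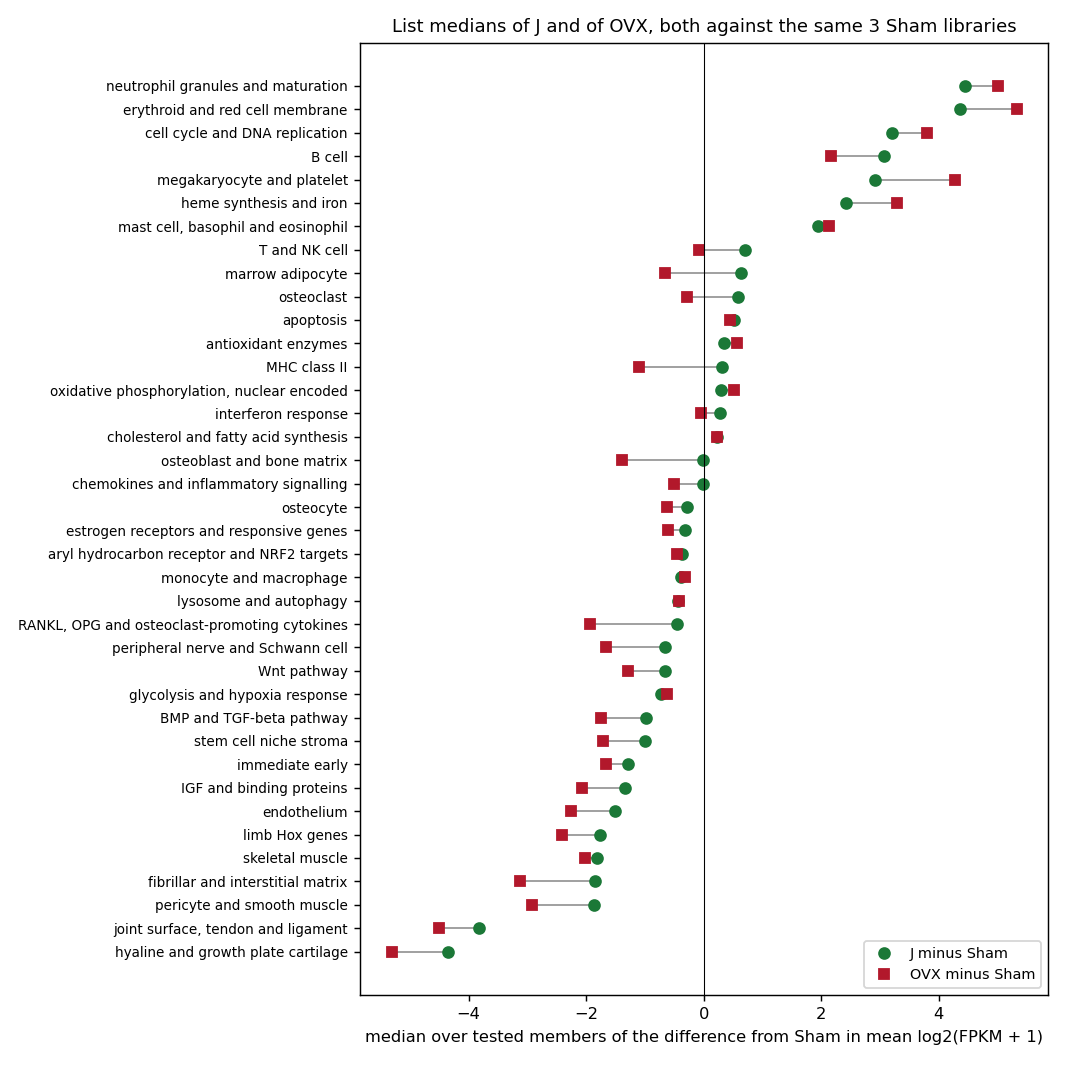
List medians of the difference from Sham in mean log2(FPKM + 1), for J (circles) and OVX (squares), which share the 3 Sham libraries. For erythroid genes J is at 4.36 and OVX at 5.33, for matrix genes J is at -1.84 and OVX at -3.13, and for B cell genes J is at 3.07 and OVX at 2.16.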

How the data were processed

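Femur RNA with poly(A) tails was sequenced. TRIzol extraction and a TruSeq RNA kit were used, per the labels' protocols, and no source used here gives strandedness. The submitters' processing notes name build mRatBN7.2 and the programs STAR 2.7.11a, fastp 0.23.4 and featureCounts 2.0.6. The authors deposited 1 value per gene for 30454 genes, of which 4319 have no symbol. The deposited values are FPKM, as their dependence on gene length shows, although the file headers name the column a count, and the column named FPKM is empty. Depth was inferred from these deposited values, whose steps within a gene are each worth 1 read: 24162 of 24207 genes above 0 had a length giving whole reads within 0.05, so this is not an independent check. A floor of 3 reads covers counting error only. Among recovered counts of 1 to 20, 64.2% were even, so read ends may have been counted.

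Groups were taken from the sample titles. Values were analysed as log2(FPKM + 1), so differences of low genes are understated. Genes averaging at least 1 FPKM over the 6 libraries entered a limma 3.58.1 fit (R 4.3.3), with an empirical Bayes trend, 4 residual degrees of freedom, two-sided tests, Benjamini-Hochberg adjustment over all tested genes and a threshold of 0.05. Intervals are 95% intervals of this fit. OVX values came from a fit of 9 libraries with 6 residual degrees of freedom. The fit was run on simulated data with noise drawn separately for each gene. That run checks the code and not the calls made here. An exact permutation test of 3 against 3 libraries cannot go below 0.10. Members and lists were chosen with earlier results of these data known. Named genes were the 10 largest changes in each direction, up to 3 of the smallest p in each list, the 2 with the highest level and 22 fixed by name, unless stated to be chosen after their values were seen. Some genes that this rule names are not reported here. Promoters came from a RefSeq table (GRCr8). Alternatives were another pseudocount, filters, scalings, array weights, all 15 libraries, a replicate block, voom on recovered reads and leaving out each library.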

Additional observations from a re-analysis of the deposited data

How the results depend on the processing

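Of 3023 genes higher and 2882 lower in J, a fit with array weights gave 4552 and 3577, and leaving out 1 library gave 2010 to 3065 higher and 2115 to 2685 lower, with the lowest higher count without J 1. Other settings kept both counts within 1.5 times: 3009 and 2864 with a pseudocount of 0.1, 2381 and 1961 with a mean FPKM of at least 5, 3030 and 2978 with no filter, 2134 and 3350 after rescaling to TPM, 3169 and 3005 with median-ratio scaling, 2783 and 3228 after rescaling that leaves out globin and mitochondrial genes, 3303 and 3130 with all 15 libraries, and 2970 and 2890 with voom on recovered reads, an alternative chosen after seeing the data. Higher genes made up 51.2% of those that passed, and 38.9% after rescaling to TPM. None of the 196 genes given by the naming rule changed sign while called, which was not checked for all genes. The medians of some lists changed sign. With the replicate number as a block, 2520 genes were higher and 2552 lower. The labels do not say that the numbers pair rats, and deviations of same-numbered J and Sham libraries correlated at 0.11, 0.25 and -0.07, so the block has no standing as a pairing. Of 156 named genes that passed, 139 also passed without each library in turn, and 11 of 40 that did not pass did so without Sham 3. Many of the 156 were named for large changes or small p in these same data. Their share therefore does not stand for all genes, whose counts without each library are given above. Mitochondrial genes held 16.4% to 24.5% of FPKM in J and 14.2% to 23.8% in Sham. Depth limits genes near the floor of 3 reads, and leaving out a library lowers the residual degrees of freedom to 3, by construction a weaker test.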

Other observations

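Some genes lay outside both saline groups. Of 14379 genes tested, 57 had all J libraries above all OVX and all Sham libraries and passed against both. In 32 of the 14379, all J libraries were below and the gene passed against both. The 2 tests share the J libraries, and the genes below were chosen after their values were seen. Sstr3, a somatostatin receptor, had 22.9, 23.9 and 26.1 FPKM in J, 9.96, 9.34 and 11.6 FPKM in OVX and 4.55, 5.397 and 2.88 FPKM in Sham (1.17 ± 0.18 in J minus OVX and 2.29 ± 0.20 in J minus Sham, SE). Aim2, a cytosolic DNA sensor that starts the inflammasome, had 22.4, 15.2 and 22.04 FPKM in J, 9.38, 10.8 and 10.9 FPKM in OVX and 5.03, 5.68 and 7.32 FPKM in Sham (0.86 ± 0.18 and 1.57 ± 0.20). Sting1, the adaptor of DNA sensing by cGAS, had 15.8, 28.2 and 13.5 FPKM in J, 7.87, 8.02 and 9.94 FPKM in OVX and 8.29, 8.30 and 7.16 FPKM in Sham (1.01 ± 0.24 and 1.11 ± 0.27), with J 2 the highest. For Sting1 the adjusted p of the limma fits was 0.0393 in J minus OVX and 0.0156 in J minus Sham. Carmil2, a regulator of actin that T cells need, had 27.1, 20.8 and 21.3 FPKM in J, 13.9, 11.1 and 13.8 FPKM in OVX and 3.19, 3.45 and 4.43 FPKM in Sham (0.79 ± 0.16 and 2.36 ± 0.17). Tmem120a, a membrane protein of fat cells among others, had 64.8, 43.3 and 46.2 FPKM in J, 14.9, 16.0 and 30.6 FPKM in OVX and 28.3, 30.0 and 32.6 FPKM in Sham (1.34 ± 0.26 and 0.72 ± 0.18).

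Among the genes below both groups, F13a1, the A subunit of coagulation factor XIII, made by macrophages and megakaryocytes, had 31.4, 37.2 and 33.4 FPKM in J, 99.7, 75.4 and 83.6 FPKM in OVX and 123, 74.0 and 74.4 FPKM in Sham (-1.31 ± 0.21 in J minus OVX and -1.35 ± 0.22 in J minus Sham). Lmna, lamin A/C of the nuclear envelope, had 46.8, 43.9 and 49.0 FPKM in J, 88.3, 70.7 and 66.5 FPKM in OVX and 131, 127 and 105 FPKM in Sham (-0.67 ± 0.14 and -1.36 ± 0.14). Evc2, a protein of the cilium base that carries hedgehog signals, had 0.927, 0.736 and 0.901 FPKM in J, 8.64, 6.41 and 3.16 FPKM in OVX and 5.23, 3.98 and 4.93 FPKM in Sham (-1.85 ± 0.28 and -1.62 ± 0.17). Aqp1, the water channel of red cells and endothelium, had 179.8, 234 and 146 FPKM in J, 327, 468 and 306 FPKM in OVX and 251, 367 and 399.9 FPKM in Sham (-0.97 ± 0.25 and -0.86 ± 0.25). Its adjusted p in the limma fits was 0.0472 in J minus OVX, just under the threshold, and 0.0334 in J minus Sham. Globin genes held 3.81%, 3.26% and 4.11% of the FPKM of J libraries, 8.25%, 7.59% and 6.22% of OVX libraries and 0.201%, 0.0840% and 0.534% of Sham libraries.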
